A study of Rattus norvegicus with 58 samples.

Results

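Interferon response genes were followed in the livers and kidneys of Harlan Sprague-Dawley rats, all male, that were dosed with 4-methylcyclohexanemethanol, a cyclohexane alcohol used in coal processing. The set is a list of names: 40 interferon-stimulated and immunoproteasome genes, each read from the array probe sets annotated to that 1 gene symbol. Of the 40 genes, 35 had such a probe set, 47 probe sets in all of 31042 on the array. Samd9l, Oasl2, Xaf1, Ifi47 and Gbp5 had no single-symbol probe set in the annotation used. All 35 passed the filter on dim probe sets in liver, among 11275 genes tested. In kidney 34 passed among 11204 genes, the exception being Cxcl9, and 34 genes could be compared between the organs among 10673.

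The rats received the compound by gavage, that is by tube into the stomach, over 5 days at 0.1, 1, 10, 100, 300 or 500 mg/kg, and the control groups received 0 mg/kg. Liver and kidney each had 5 control arrays and 4 arrays at each dose, 58 Affymetrix Rat Genome arrays in all, 1 array per sample. No age is given in the labels, and the number of arrays limits the precision of each value. The labels number the biological replicates within each dose and organ. They do not state that a liver and a kidney of the same dose and number came from 1 rat.

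Interferons are secreted proteins that cells release on sensing viral nucleic acid. Type I interferon binds a receptor whose kinases activate STAT2, which enters the nucleus with IRF9 in a complex that binds a short DNA element in front of target genes. Interferon gamma acts through a receptor of its own and is known for raising chemokines such as Cxcl9, immunoproteasome subunits and peptide transporters. Both organs hold resident macrophages, in liver the Kupffer cells, which are known to respond to and produce these signals.

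The tissue labels fitted the markers. The mean of 10 hepatocyte transcripts lay between 13.14 and 13.38 on every liver array and between 5.12 and 6.91 on the kidney arrays, and the mean of 9 kidney epithelial transcripts lay between 10.95 and 11.50 in kidney and between 4.35 and 4.67 in liver. Adipose transcripts stood apart on 2 kidney arrays, with means of 10.07 (300 mg/kg, replicate 3) and 9.18 (500 mg/kg, replicate 3) against at most 5.74 on the others. Hepatocyte transcripts stood apart on the kidney array of control replicate 2, whose mean was 6.91 against at most 5.86 on the other kidneys, with albumin (Alb) at 10.19 against at most 7.28. Without that array no member was called in kidney at any dose, as with it.

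The interferon response genes varied together in liver and kidney from 1 replicate number to the next, within the dose groups. For each of 29 liver and kidney pairs of the same dose and replicate number, a gene's deviation from the mean of its own dose group was taken in each organ, and the 2 deviations were correlated over the pairs. Of 34 members, 15 were called (adjusted p under 0.05, Benjamini-Hochberg over 10673 genes), all with a positive r, where 1.09% of all genes tested were called with a positive r. The called members were Oas1a, Mx2, Irf7, Usp18, Isg15, Gbp2, Rtp4, Ifit3, Parp9, Irf9, Ifi27, Mx1, Herc6, Sp110 and Tap1. The median r was 0.62 over the members and 0.09 over all genes, and 33 of 34 members had an r above 0, against 64.5% of all genes. Members move together within each organ, so these counts do not weigh as 34 separate genes. The set was also chosen with earlier results of these data known.

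The mean of the 34 members was highest above its dose group in the pair 500 mg/kg replicate 4, by 0.67 on the log2 scale in liver and 0.46 in kidney. By the mean of both organs 1 mg/kg replicate 3 (0.46 and 0.25) and 300 mg/kg replicate 3 (0.33 and 0.34) came next, while in kidney alone 0.1 mg/kg replicate 2 (0.28) lay above the former. Without these 3 pairs 3 members were called, Oas1a, Mx2 and Irf7, against 0.665% of all genes, and the median r of the members was 0.44. Mx2 is among them on 1 of its 2 probe sets, whose values form 2 clusters as given below. Without control pair 2, whose kidney was high in hepatocyte transcripts, 15 were called, against 1.13% of all genes. Leaving out the pair 500 mg/kg replicate 4 alone left 9 called, against 0.853% of all genes. Without the 2 pairs whose kidneys were rich in adipose transcripts, which include 300 mg/kg replicate 3, 11 were called, against 0.89%. At the low end lay 500 mg/kg replicate 3 (-0.35 and -0.25), 10 mg/kg replicate 1 (-0.34 and -0.31) and 300 mg/kg replicate 1 (-0.31 and -0.41). In 23 of 29 pairs the mean of the members lay on the same side of its dose group in both organs, and its r over the pairs was 0.88, or 0.85 without the 2 pairs farthest from the median in liver.

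**Figure D1:**
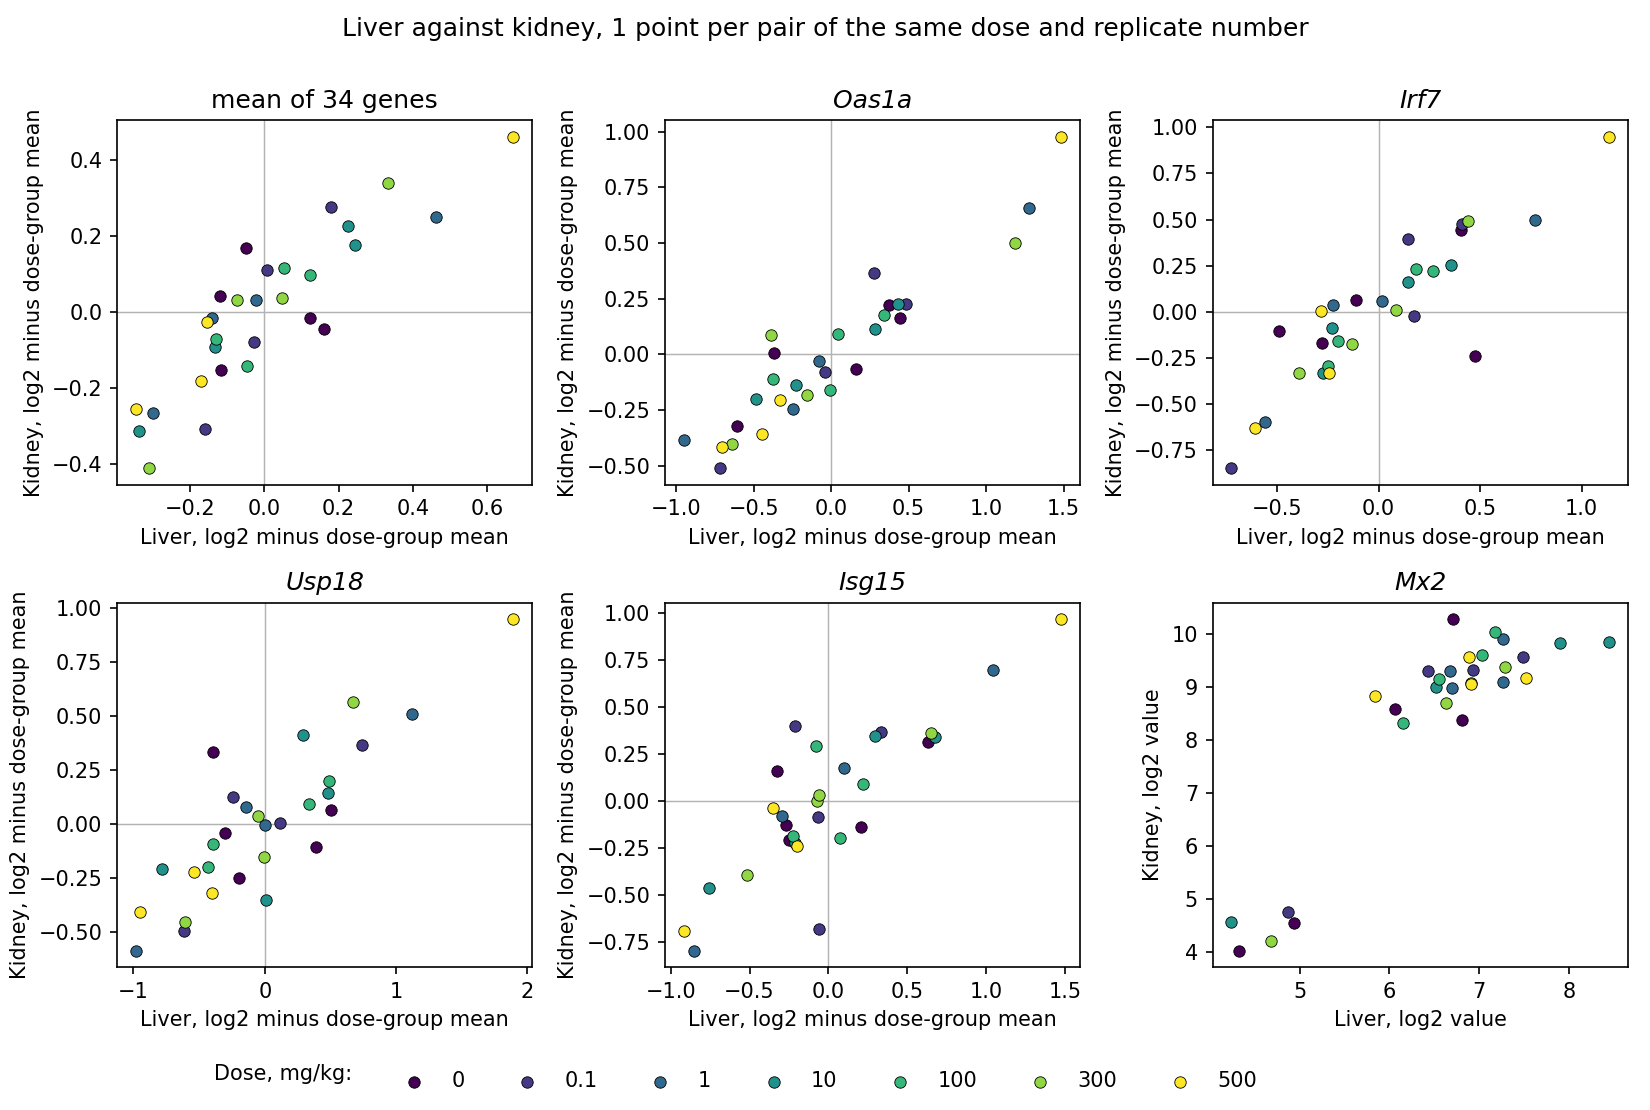
Liver (horizontal) against kidney (vertical) for 29 pairs of the same dose and replicate number, coloured by dose; each point is 1 pair, and the first 5 panels show log2 deviations from the dose-group mean, the Mx2 panel log2 values. The pair 500 mg/kg replicate 4 sits at the upper right for the mean of 34 members (0.67 in liver, 0.46 in kidney), and for Mx2 5 pairs form a low cluster apart from the other 24.

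Oas1a, which makes the oligoadenylate signal that switches on RNA degradation, had the highest correlation of the members. Oas1a in liver had log2 values of 5.96, 6.72, 6.20, 7.01 and 6.94 in control replicates 1 to 5 and, for replicates 1 to 4, 6.73, 7.26, 7.05 and 6.06 at 0.1 mg/kg, 6.98, 6.80, 8.33 and 6.10 at 1 mg/kg and 6.29, 7.21, 6.55 and 7.05 at 10 mg/kg. Liver Oas1a at the higher doses was 6.86, 6.51, 6.56 and 6.14 at 100 mg/kg, 6.43, 6.68, 8.26 and 6.92 at 300 mg/kg and 6.07, 5.70, 5.96 and 7.89 at 500 mg/kg. Oas1a in kidney had log2 values of 5.20, 5.45, 5.52, 5.68 and 5.74 in control replicates 1 to 5 and, for replicates 1 to 4, 5.45, 5.76, 5.90 and 5.02 at 0.1 mg/kg, 5.58, 5.36, 6.26 and 5.22 at 1 mg/kg and 5.51, 5.94, 5.58 and 5.83 at 10 mg/kg. Kidney Oas1a at the higher doses was 5.35, 5.01, 5.26 and 5.06 at 100 mg/kg, 5.30, 5.79, 6.20 and 5.52 at 300 mg/kg and 5.28, 5.07, 5.13 and 6.47 at 500 mg/kg. The same 3 pairs were highest in both organs, 1 mg/kg replicate 3, 300 mg/kg replicate 3 and 500 mg/kg replicate 4, while every dosed group overlapped the controls. Pearson's r was 0.94 (permutation p = 1e-05, adjusted p = 7.85e-08) and Spearman's rho 0.91 (permutation p = 1e-05), where 1e-05 is the smallest p that 100000 two-sided permutations of the pairing within dose can give. Without the 2 pairs farthest from the median in liver r was 0.90.

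Irf7, a transcription factor that is induced by interferon and in turn raises interferon production, followed with a similar order of pairs. Irf7 in liver had log2 values of 7.58, 7.75, 7.37, 8.33 and 8.27 in control replicates 1 to 5 and, for replicates 1 to 4, 8.12, 8.35, 8.09 and 7.22 at 0.1 mg/kg, 8.12, 7.88, 8.87 and 7.54 at 1 mg/kg and 7.85, 8.48, 7.90 and 8.27 at 10 mg/kg. Liver Irf7 at the higher doses was 7.98, 7.89, 7.51 and 7.46 at 100 mg/kg, 7.78, 8.25, 8.61 and 8.04 at 300 mg/kg and 7.49, 7.53, 7.17 and 8.91 at 500 mg/kg. Irf7 in kidney had log2 values of 6.91, 7.14, 6.97, 6.84 and 7.52 in control replicates 1 to 5 and, for replicates 1 to 4, 7.07, 7.57, 7.49 and 6.25 at 0.1 mg/kg, 7.50, 7.48, 7.95 and 6.85 at 1 mg/kg and 7.03, 7.61, 7.27 and 7.52 at 10 mg/kg. Kidney Irf7 at the higher doses was 7.17, 7.18, 6.79 and 6.66 at 100 mg/kg, 7.08, 7.42, 7.90 and 7.23 at 300 mg/kg and 6.98, 6.64, 6.34 and 7.92 at 500 mg/kg. The 3 pairs named for Oas1a were again the highest in both organs, and 500 mg/kg replicate 3 and 0.1 mg/kg replicate 4 were the lowest. Its r was 0.88 (permutation p = 1e-05, adjusted p = 2.46e-05), its rho 0.83 (permutation p = 3e-05), and r was 0.83 without the 2 farthest pairs.

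Isg15 encodes a ubiquitin-like protein that is attached to other proteins during the interferon response, and Usp18 the protease that removes it and also dampens signalling at the type I receptor. Usp18 in liver had log2 values of 6.92, 7.12, 7.01, 7.71 and 7.82 in control replicates 1 to 5 and, for replicates 1 to 4, 7.25, 8.23, 7.61 and 6.88 at 0.1 mg/kg, 7.75, 7.60, 8.86 and 6.76 at 1 mg/kg and 7.06, 8.33, 7.86 and 8.14 at 10 mg/kg. Liver Usp18 at the higher doses was 7.45, 7.60, 6.69 and 6.72 at 100 mg/kg, 7.34, 7.89, 8.62 and 7.94 at 300 mg/kg and 6.70, 6.83, 6.29 and 9.13 at 500 mg/kg. Usp18 in kidney had log2 values of 6.20, 5.61, 5.82, 5.76 and 5.93 in control replicates 1 to 5 and, for replicates 1 to 4, 5.99, 6.23, 5.87 and 5.36 at 0.1 mg/kg, 5.91, 5.99, 6.42 and 5.33 at 1 mg/kg and 5.78, 6.13, 5.63 and 6.40 at 10 mg/kg. Kidney Usp18 at the higher doses was 5.79, 5.89, 5.50 and 5.60 at 100 mg/kg, 5.63, 6.12, 6.65 and 5.93 at 300 mg/kg and 5.45, 5.36, 5.27 and 6.63 at 500 mg/kg. In both organs the lowest Usp18 value was that of 500 mg/kg replicate 3, and the 3 highest came from the same 3 pairs as before. The Usp18 r was 0.85 (permutation p = 2e-05, adjusted p = 0.000133), its rho 0.79 (permutation p = 6e-05), and r was 0.75 without the 2 farthest pairs.

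Isg15 in liver had log2 values of 7.33, 7.35, 7.27, 7.80 and 8.23 in control replicates 1 to 5 and, for replicates 1 to 4, 7.75, 8.15, 7.60 and 7.76 at 0.1 mg/kg, 7.85, 7.45, 8.79 and 6.89 at 1 mg/kg and 7.10, 8.15, 7.64 and 8.54 at 10 mg/kg. Liver Isg15 at the higher doses was 7.77, 7.48, 7.33 and 7.63 at 100 mg/kg, 7.52, 7.97, 8.69 and 7.98 at 300 mg/kg and 7.35, 7.51, 6.79 and 9.18 at 500 mg/kg. Isg15 in kidney had log2 values of 6.83, 6.75, 7.12, 6.82 and 7.27 in control replicates 1 to 5 and, for replicates 1 to 4, 6.85, 7.30, 7.33 and 6.26 at 0.1 mg/kg, 7.43, 7.18, 7.95 and 6.46 at 1 mg/kg and 6.85, 7.66, 7.08 and 7.65 at 10 mg/kg. Kidney Isg15 at the higher doses was 6.85, 7.05, 6.57 and 6.56 at 100 mg/kg, 7.03, 7.42, 7.78 and 7.45 at 300 mg/kg and 7.07, 6.87, 6.42 and 8.08 at 500 mg/kg. Isg15 was highest in 500 mg/kg replicate 4 in both organs, and replicate 4 of 1 mg/kg and replicate 3 of 500 mg/kg were among the 3 lowest kidneys and the 2 lowest livers. Isg15 had an r of 0.84 (permutation p = 2e-05, adjusted p = 0.000216) and a rho of 0.71 (permutation p = 0.00039), and r was 0.75 without the 2 farthest pairs. Herc6, the rodent ligase that attaches ISG15, was also called (r = 0.70, adjusted p = 0.0249), so that all 3 genes of the set that are listed under this system were.

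Mx2, an interferon-induced GTPase of the dynamin family, behaved unlike the others. Mx2 in liver had log2 values of 6.71, 4.94, 6.06, 6.81 and 4.32 in control replicates 1 to 5 and, for replicates 1 to 4, 4.87, 6.93, 6.44 and 7.49 at 0.1 mg/kg, 6.70, 7.27, 7.27 and 6.68 at 1 mg/kg and 4.24, 7.91, 6.52 and 8.44 at 10 mg/kg. Liver Mx2 at the higher doses was 6.55, 7.18, 6.15 and 7.04 at 100 mg/kg, 4.69, 6.91, 7.29 and 6.63 at 300 mg/kg and 6.91, 6.89, 5.84 and 7.52 at 500 mg/kg. Mx2 in kidney had log2 values of 10.27, 4.54, 8.57, 8.37 and 4.02 in control replicates 1 to 5 and, for replicates 1 to 4, 4.75, 9.32, 9.30 and 9.57 at 0.1 mg/kg, 8.97, 9.89, 9.08 and 9.30 at 1 mg/kg and 4.56, 9.83, 9.00 and 9.84 at 10 mg/kg. Kidney Mx2 at the higher doses was 9.15, 10.03, 8.32 and 9.60 at 100 mg/kg, 4.21, 9.07, 9.36 and 8.69 at 300 mg/kg and 9.06, 9.55, 8.83 and 9.16 at 500 mg/kg. The values come from 1 of its 2 probe sets, the brighter over all 58 arrays and in kidney; in liver the other was slightly brighter (mean 6.58 against 6.52) and stood for Mx2 in the liver dose tests. The values fell into 2 clusters in kidney, 24 arrays from 8.32 to 10.27 and 5 arrays from 4.02 to 4.75. The livers of the same 5 pairs held the 5 lowest liver values, 4.24 to 4.94 against 5.84 to 8.44. The 5 pairs were replicates 2 and 5 of the controls and replicate 1 at 0.1, 10 and 300 mg/kg. Since the samples fall into clusters, the r over all pairs is not given as a relation; within the 24 pairs of the high cluster r was 0.57 (permutation p = 0.00292), rho 0.66 (permutation p = 0.00163), and r was 0.53 without the 2 farthest pairs. The other Mx2 probe set had an r of 0.05 over the 29 pairs (adjusted p = 0.972), so the 2 probe sets of the gene disagreed. Without Mx2, 14 of 33 members were called and the r of the members' mean was 0.89.

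Promoter sequence is shown for the 4 called members with the highest correlations among those with a promoter entry that holds the element, because the element bound by the complex that holds STAT2 and IRF9 could be looked for in it. Each line holds the 250 bases before the gene's start, 5′ to 3′ on the gene's strand, from RefSeq on build GRCr8, with matches on either strand to GAAA, any 2 bases and GAAA again in capitals.
Oas1a (chr12:41330216-41330465, plus strand): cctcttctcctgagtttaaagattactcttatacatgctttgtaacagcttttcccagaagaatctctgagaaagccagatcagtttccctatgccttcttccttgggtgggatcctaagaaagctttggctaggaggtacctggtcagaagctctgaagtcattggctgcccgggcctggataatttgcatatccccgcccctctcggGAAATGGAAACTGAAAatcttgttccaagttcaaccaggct
Irf7 (chr1:205800024-205800273, minus strand): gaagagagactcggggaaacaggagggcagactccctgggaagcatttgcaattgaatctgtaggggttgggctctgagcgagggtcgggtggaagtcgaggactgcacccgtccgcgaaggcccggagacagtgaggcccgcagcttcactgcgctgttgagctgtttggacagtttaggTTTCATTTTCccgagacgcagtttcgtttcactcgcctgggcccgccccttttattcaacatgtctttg
Gbp2 (chr2:234005477-234005726, plus strand): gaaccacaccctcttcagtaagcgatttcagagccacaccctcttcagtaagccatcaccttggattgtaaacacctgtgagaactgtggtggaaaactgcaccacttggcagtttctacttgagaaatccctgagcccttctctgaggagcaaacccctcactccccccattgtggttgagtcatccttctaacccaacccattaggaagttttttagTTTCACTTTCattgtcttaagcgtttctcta
Ifit3 (chr1:241527076-241527325, plus strand): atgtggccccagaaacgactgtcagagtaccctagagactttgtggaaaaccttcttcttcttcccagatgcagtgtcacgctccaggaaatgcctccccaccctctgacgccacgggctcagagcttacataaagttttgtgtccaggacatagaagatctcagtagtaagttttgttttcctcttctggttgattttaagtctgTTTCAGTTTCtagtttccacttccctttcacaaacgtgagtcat

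The Oas1a window holds a pair of overlapping matches 41 to 26 bases before the start, GAAATGGAAA and GAAACTGAAA. In Irf7, Gbp2 and Ifit3 the match is on the opposite strand and reads TTTCATTTTC 69 to 60, TTTCACTTTC 31 to 22 and TTTCAGTTTC 44 to 35 bases before the start. Promoters of 32 of the 40 members were matched by symbol or gene number, and 19 of the 32 (59.4%) held GAAA, any 2 bases and GAAA in these 250 bases, against 3.41% of 33469 rat promoters of the same length. The share was 63.6% of 11 called members and 56.2% of 16 that were tested and not called. Usp18, Samd9l, Ifit1, Mx2, Rtp4, Ifit2, Dhx58 and Isg15 were not matched. The windows of Tap1 and Psmb9, which lie head to head on chromosome 20, overlap. A match is a description of letters and not a measured binding site.

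Among the remaining antiviral effectors the correlations ran from high to none. Rtp4, a transmembrane protein that restrains RNA virus replication, had an r of 0.81 (adjusted p = 0.000948) and Ifit3, a member of a family that binds foreign RNA, one of 0.80 (adjusted p = 0.00127). Their permutation p-values were 3e-05 and 0.00011, their rho 0.75 (permutation p = 0.00012) and 0.71 (permutation p = 0.00051), and r was 0.71 and 0.67 without the 2 farthest pairs. Ifi27 and Mx1 each had an r of 0.71 (adjusted p = 0.0199 and 0.02). Rsad2, which encodes viperin, and its neighbour Cmpk2 had r of 0.63 (adjusted p = 0.0817) and 0.51 (adjusted p = 0.313). Oasl, Bst2, which encodes tetherin, Ifi44 and Ifit2 lay between 0.32 and 0.63 and were not called. Ifit1 had an r of 0.12 (adjusted p = 0.923, permutation p = 0.578), with a rho of 0.02 (permutation p = 0.915) and an r of -0.04 without the 2 farthest pairs. Its single probe set also did not follow the other members within an organ, with an r against their mean of 0.02 in liver and -0.22 in kidney.

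Gbp2, a guanylate-binding GTPase raised above all by interferon gamma, had an r of 0.83 (permutation p = 4e-05, adjusted p = 0.000413), a rho of 0.73 (permutation p = 0.00022) and an r of 0.73 without the 2 farthest pairs. Parp9, which acts with the ligase Dtx3l in the interferon response, had an r of 0.76 (permutation p = 3e-05, adjusted p = 0.00497), a rho of 0.71 (permutation p = 0.00014) and an r of 0.70 without those pairs. Parp14 had an r of 0.53 and was not called (adjusted p = 0.274). Among the transcription factors Irf9, the DNA-binding partner of STAT2, had an r of 0.73 (permutation p = 0.00054, adjusted p = 0.0115), a rho of 0.69 (permutation p = 0.00066) and an r of 0.62 without the 2 farthest pairs. Both of its probe sets were called, the second with an r of 0.78 (adjusted p = 0.00364 over all probe sets). Sp110, a nuclear body protein, was called on the brightest of its 3 probe sets (r = 0.68, adjusted p = 0.0341), while the other two had r of 0.15 and 0.17. Irf1 (r = 0.50) and Stat2 (r = 0.43) were not called.

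None of the 4 genes of RNA sensing was called, although 3 had an unadjusted p under 0.05, as did 1043 of all 10673 genes. The highest was Eif2ak2, the kinase PKR that stops translation on double-stranded RNA (r = 0.57, adjusted p = 0.185). Dhx58 and Ifih1, relatives of RIG-I, had r of 0.49 and 0.42, and Trim25, the ubiquitin ligase that acts on RIG-I, one of 0.28. In antigen processing Tap1, 1 subunit of the peptide transporter of the endoplasmic reticulum, was called (r = 0.68, adjusted p = 0.0371), and the immunoproteasome subunits Psmb9 and Psmb8 had r of 0.61 (adjusted p = 0.114) and 0.55 (adjusted p = 0.215). Tap2, the other subunit of the transporter, had an r of 0.26 (permutation p = 0.234, adjusted p = 0.773), a rho of 0.24 (permutation p = 0.27) and an r of 0.16 without the 2 farthest pairs. Psmb10 had an r of -0.00058 (permutation p = 0.998, adjusted p = 0.999), a rho of 0.02 (permutation p = 0.911) and an r of -0.16 without those pairs. The constitutive subunits Psmb5 and Psmb7 had r of 0.08 and 0.11. Cxcl10, a chemokine for activated T cells, had an r of 0.44 (adjusted p = 0.462).

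**Figure D2:**
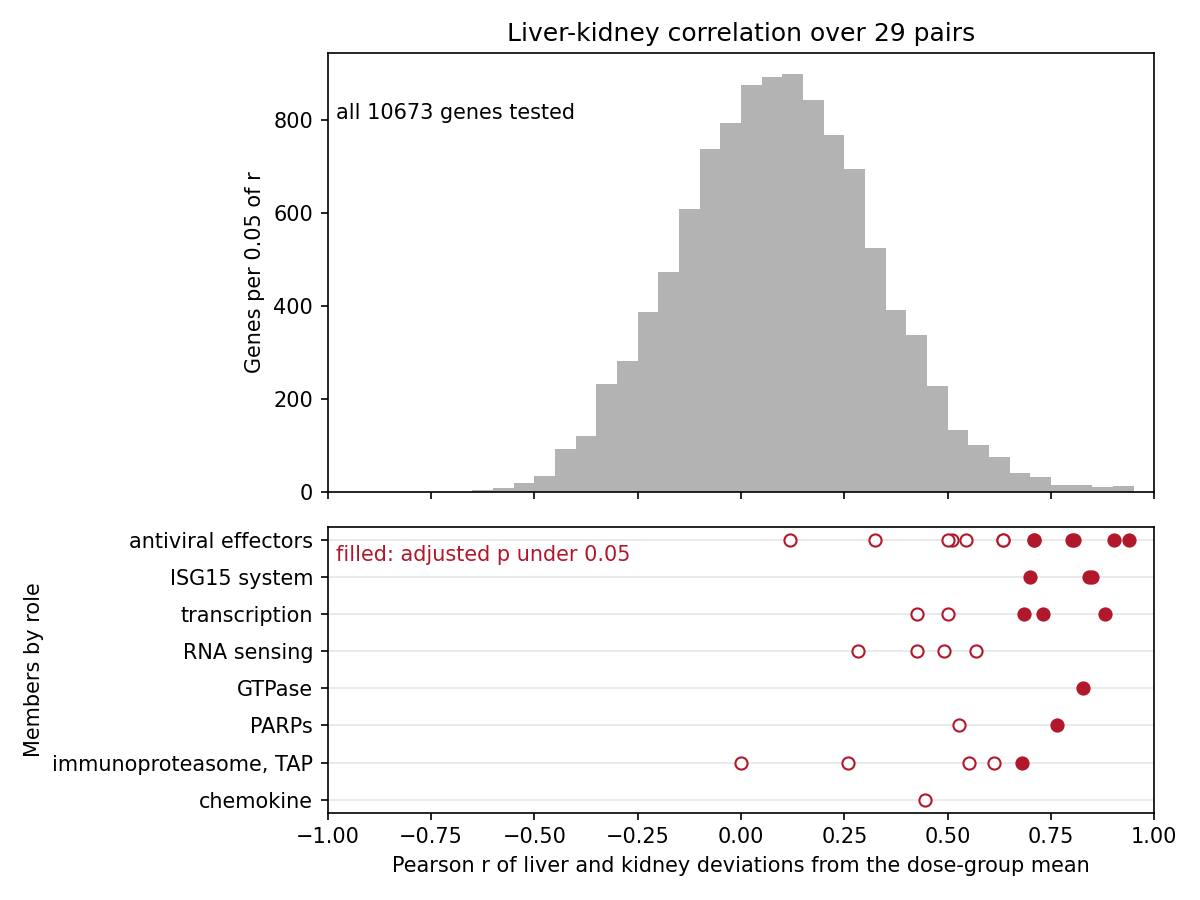
Above, a histogram of Pearson's r between liver and kidney deviations for all 10673 genes tested, with the number of genes per 0.05 of r on the vertical axis; below, the 34 members by role on the same horizontal axis, filled where called. The bulk of all genes centres near the median of 0.09, and the 15 filled points lie between 0.68 and 0.94.

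Other genes of the pathway, from a list drawn up with earlier results of these data known, gave the following counts. Of 22 further interferon-induced genes 3 were called, Lgals3bp (r = 0.69, adjusted p = 0.0316), Igtp (r = 0.69, adjusted p = 0.0316) and Dtx3l (r = 0.67, adjusted p = 0.0433), and their median r was 0.27. None of 8 receptor and kinase genes was called (1 at an unadjusted p under 0.05), nor of 8 further transcription factors and partners (2), 5 sensing genes (0), 4 inhibitors (2) or 4 ligands (1). Over all 10673 genes tested, 1043 had an unadjusted p under 0.05. Medians were 0.03 for the receptors and kinases, among them Ifnar1 at 0.12, Jak1 at -0.28 and Tyk2 at 0.13, and -0.12 for the inhibitors, which include Socs1 at -0.02.

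Within each organ the members also moved with each other. The median r over the 561 pairs of members was 0.56 in liver and 0.58 in kidney, where members against other genes had medians of -0.00 and 0.04. These correlations share their 29 arrays and are given without a test. Usp18 followed the mean of the other members most closely when the lower of its 2 organs is taken (0.95 in liver, 0.91 in kidney), and Trim25 did not follow it (-0.04 and 0.06). Ifit2 differed between organs, at 0.39 in liver and 0.93 in kidney. The 10 genes outside the set whose deviations were most like the members' mean, ranked by the lower r of the 2 organs over 29 arrays each, were Ube2l6, RT1-S3, Lgals3bp, Ifi44l, Igtp, Ifi27l2b, Mpeg1, Znfx1, Ly6c and Ifgga2l1. Ube2l6 had 0.84 in liver and 0.83 in kidney, and Ifgga2l1, the last of them, 0.73 and 0.83.

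**Figure D3:**
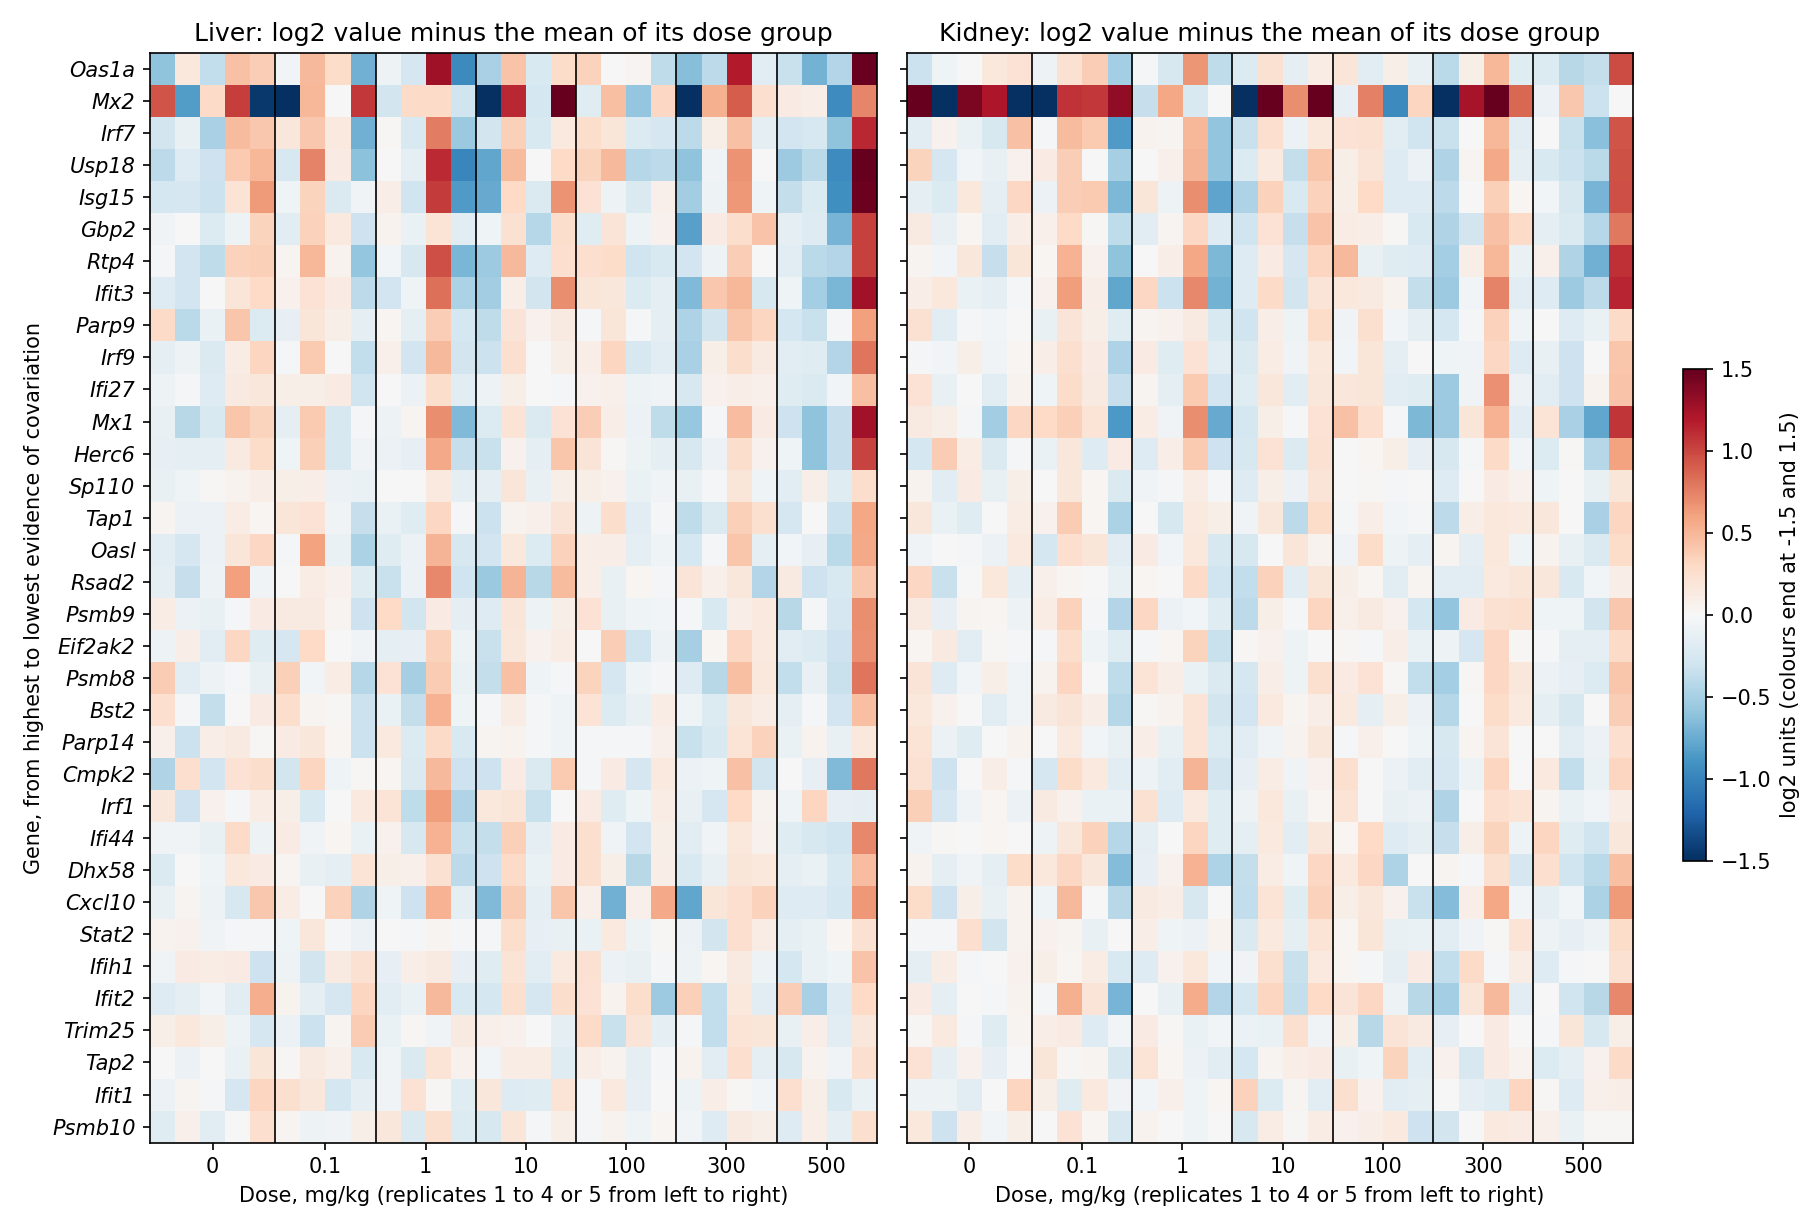
Deviation of each array from its dose-group mean (log2 units, blue below and red above) for 34 genes in rows and 29 livers (left) and 29 kidneys (right) in columns by dose and replicate. The last column of each block, 500 mg/kg replicate 4, is red for most genes in both organs, and the Mx2 row is dark blue in 5 kidneys.

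The members were among the more variable genes in the data. The standard deviation around the dose-group means had a median of 0.32 over the members in liver and 0.25 in kidney, against 0.15 and 0.13 over all genes. It exceeded the 90th percentile of all genes for 22 of 34 members in liver and 19 in kidney. Apart from Mx2 (1.08 and 1.97), Usp18 was the most variable in liver (0.72) and Mx1 in kidney (0.52). Stat2 (0.14 and 0.16) and Sp110 (0.13 and 0.13) varied about as much as the typical gene.

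Macrophage transcripts moved with the members. Their mean deviation, over 9 marker genes in liver and 8 in kidney, had an r with the members' mean of 0.68 in liver and 0.76 in kidney over 29 arrays. All 9 macrophage genes had a positive r in liver, highest for Clec4f (0.76) and Cd68 (0.73), and 7 of 8 in kidney, highest for C1qc (0.83) and C1qa (0.80). Markers listed as lymphocyte had lower values, 0.40 in liver and 0.31 in kidney, with 8 of 10 and 3 of 7 genes above 0. In kidney Ptprc was the highest of them (0.66), while Cd2, Cd3e, Gzmk and Ms4a1 lay below 0. The macrophage mean itself had an r of 0.45 between liver and kidney, and 0 of 8 macrophage genes were called on their own (2 at an unadjusted p under 0.05). With the macrophage mean removed from both organs 3 members were called, Mx2, Rsad2 and Sp110, against 0.862% of all genes, the median r was 0.36 and 33 of 34 stayed above 0. With the lymphocyte mean removed 9 were called, against 0.768%, and with both removed 2, Mx2 and Sp110, against 0.656% of all genes. The other probe sets of Mx2 (r = 0.05) and Sp110 (r = 0.15 and 0.17) were not called over all pairs. The Mx2 values also fall into 2 clusters, so these calls carry that limit. In bulk RNA, fewer cells of a type and less RNA per cell cannot be told apart, and the part of the markers in the covariation was not tested.

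Dose was compared next, with limma on the log2 values, each dose against the same 5 controls of the organ, so that the comparisons within an organ share their controls. In liver no member was called at any of the 6 doses, where 0.958% of 11275 genes were called at 500 mg/kg, 0.0266% at 300 mg/kg and 0% at the 4 lower doses. Unadjusted p-values under 0.05 were found for 1, 2, 1, 1, 1 and 2 of 35 members from 0.1 to 500 mg/kg. The median difference of the members ran from -0.08 at 500 mg/kg to 0.10 at 1 mg/kg, against -0.01 to 0.01 over all genes. In the mean of the 6 dosed groups no member was called either (0% of all genes, 1 member at an unadjusted p under 0.05). For these comparisons the share of all genes at that p is not given, so the member counts cannot be weighed against it.

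Cxcl9, the chemokine that draws T cells and is raised by interferon gamma, was the member with the clearest relation to dose in liver. Cxcl9 in liver had log2 values of 7.07, 7.45, 7.12, 7.15 and 8.11 in control replicates 1 to 5 and, for replicates 1 to 4, 7.36, 7.29, 7.44 and 7.86 at 0.1 mg/kg, 6.78, 7.01, 6.94 and 7.06 at 1 mg/kg and 6.91, 7.04, 7.20 and 7.95 at 10 mg/kg. Liver Cxcl9 at the higher doses was 7.23, 7.54, 6.99 and 7.39 at 100 mg/kg, 6.21, 6.82, 6.78 and 7.20 at 300 mg/kg and 6.23, 6.57, 6.54 and 7.08 at 500 mg/kg. The group means were 7.38 ± 0.44 (SD, n = 5) in controls, 6.76 ± 0.41 (SD, n = 4) at 300 mg/kg and 6.61 ± 0.35 (SD, n = 4) at 500 mg/kg. At 500 mg/kg 3 of 4 livers lay below every control and the fourth among them. All 4 livers at 1 mg/kg also lay below every control, while those at 0.1, 10 and 100 mg/kg overlapped the control range. The difference from control was -0.77 (SE 0.22), a ratio of 0.585, and missed the threshold (limma adjusted p = 0.0804), at 300 mg/kg it was -0.62 (SE 0.22, adjusted p = 0.469) and at 1 mg/kg -0.43 (SE 0.22, adjusted p = 0.829).

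Over the ordered doses Cxcl9 fell by 0.12 per dose step in liver (SE 0.03, limma adjusted p = 0.0382), the only called member of 35, where 1.84% of all genes were called and 1.17% fell. Its second probe set gave -0.99 at 500 mg/kg (SE 0.23, adjusted p = 0.039 over all probe sets) and a trend of -0.15 (adjusted p = 0.0217). The call for the first probe set was lost when any 1 of 10 livers was left out, with an adjusted p between 0.0504 and 0.115. They were control replicates 2 and 5, 0.1 mg/kg replicates 1, 3 and 4, 300 mg/kg replicates 1 and 3, and 500 mg/kg replicates 1, 2 and 3. The mean of 10 macrophage markers was lower at 500 mg/kg too, 8.12 ± 0.19 (SD, n = 4) against 8.35 ± 0.10 (SD, n = 5) in controls, with overlapping ranges of 7.94 to 8.39 and 8.22 to 8.45. With the mean of the 9 markers that passed the filter in liver as a covariate the Cxcl9 trend was -0.10 (limma adjusted p = 0.269). Over the alternatives run the adjusted p ranged from 0.00785 to 0.269. In kidney Cxcl9 was dim, at 3.71 to 5.43, and was not tested there.

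Of the other ligands listed, the chemokine Ccl5 fell in liver at 500 mg/kg by 0.60 (SE 0.14, limma adjusted p = 0.0312) and by 0.10 per dose step (adjusted p = 0.0206). Cxcl10 differed by -0.26 at 500 mg/kg and was not called. None of the 8 receptors and kinases, 9 transcription factors, 6 sensing genes, 5 inhibitors or 25 other interferon-induced genes was called at 500 mg/kg in liver, where 1, 2, 0, 0 and 3 had an unadjusted p under 0.05. The share of all genes at that p is not given beside these counts.

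Irf1, the factor that carries much of the interferon gamma response, had the smallest p in liver at low dose. Irf1 in liver had log2 values of 7.89, 7.42, 7.79, 7.69 and 7.83 in control replicates 1 to 5 and, for replicates 1 to 4, 7.42, 7.10, 7.33 and 7.47 at 0.1 mg/kg, 7.41, 6.83, 7.84 and 6.76 at 1 mg/kg and 7.58, 7.60, 7.09 and 7.44 at 10 mg/kg. Liver Irf1 at the higher doses was 7.54, 7.23, 7.35 and 7.52 at 100 mg/kg, 7.34, 7.19, 7.75 and 7.50 at 300 mg/kg and 7.39, 7.79, 7.34 and 7.33 at 500 mg/kg. All 6 dosed groups had a lower mean than the controls and all 6 overlapped them. At 1 mg/kg the difference was -0.52 (SE 0.17, limma adjusted p = 0.771), with replicates 2 and 4 low and replicate 3 in the control range. For the mean of the 6 dosed groups it was -0.34 (SE 0.12, adjusted p = 0.654, and 0.308 to 0.906 over the alternatives run). Irf1 in kidney had log2 values of 7.02, 6.41, 6.61, 6.68 and 6.58 in control replicates 1 to 5 and, for replicates 1 to 4, 6.81, 6.74, 6.57 and 6.57 at 0.1 mg/kg, 6.92, 6.49, 6.83 and 6.50 at 1 mg/kg and 6.58, 6.81, 6.54 and 6.68 at 10 mg/kg. Kidney Irf1 at the higher doses was 6.84, 6.63, 6.53 and 6.55 at 100 mg/kg, 6.39, 6.84, 7.09 and 7.05 at 300 mg/kg and 6.76, 6.62, 6.68 and 6.83 at 500 mg/kg. Kidney values at every dose overlapped the controls.

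**Figure D4:**
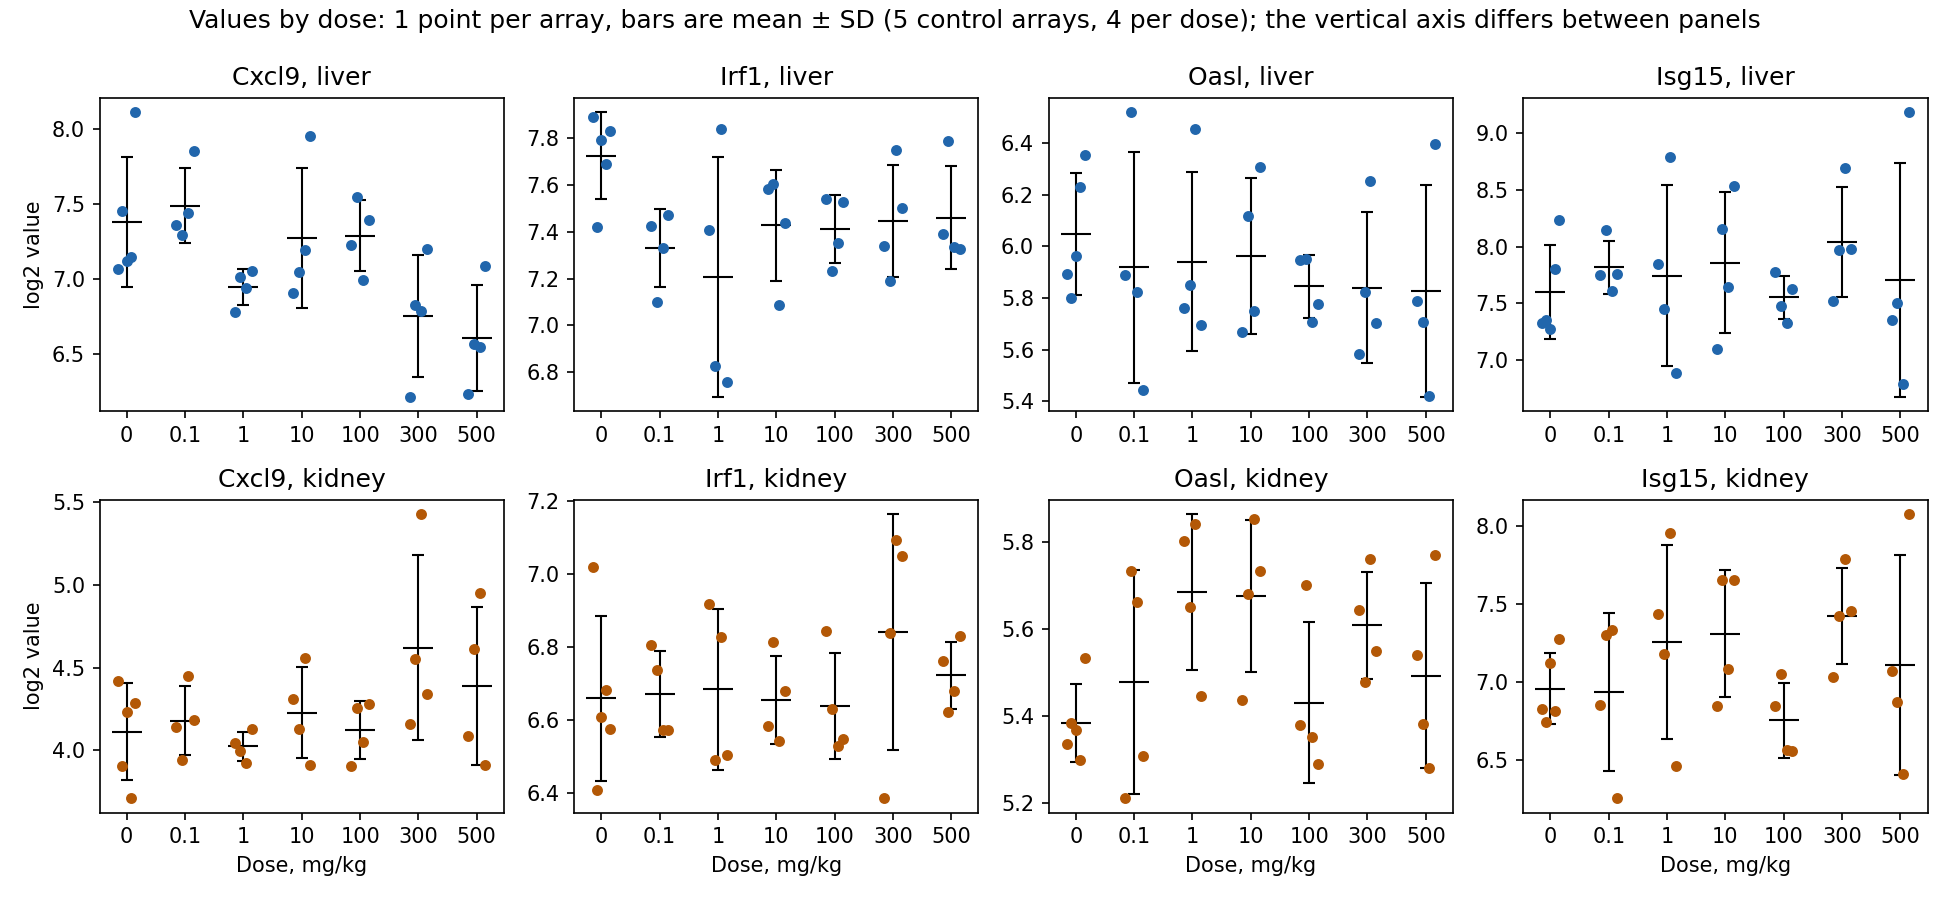
Log2 values of Cxcl9, Irf1, Oasl and Isg15 by dose (horizontal, mg/kg) in liver (upper row) and kidney (lower row), 1 point per array with the mean ± SD of each group; the vertical axis differs between panels. Liver Cxcl9 steps down at 300 and 500 mg/kg (6.76 and 6.61 against 7.38), and Isg15 at 500 mg/kg runs from 6.79 to 9.18 in liver.

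The remaining lowest p-values in liver belonged to few genes. Trim25 differed by 0.29 at 1 mg/kg (SE 0.13, limma adjusted p = 0.829), -0.20 at 0.1 mg/kg and -0.25 at 500 mg/kg, and Ifit1 by -0.30 at 10 mg/kg (adjusted p = 0.752). Dhx58 differed by -0.36 at 100 mg/kg (adjusted p = 0.999) and -0.34 at 500 mg/kg (adjusted p = 0.31), and Mx1 by 0.54 at 300 mg/kg (SE 0.29, adjusted p = 0.662). Others among the 3 smallest p at a dose were Bst2 at 0.1 mg/kg (-0.17), Cmpk2 at 10 mg/kg (0.33) and Ifih1 at 100 mg/kg (0.22).

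In kidney no member was called at any dose, in the mean of the dosed groups or over the ordered doses. Of 11204 genes tested, 0.0268% were called at 300 mg/kg and again at 500 mg/kg, 0% at the lower doses, 0.00893% in the mean of the dosed groups and 0.152% over the ordered doses. Members with an unadjusted p under 0.05 numbered 1, 4, 3, 0, 1 and 1 of 34 from 0.1 to 500 mg/kg, 1 in the mean of the dosed groups and 0 over the ordered doses. As in liver, the share of all genes at that p is not given, so the counts cannot be weighed against it. At 1 mg/kg 32 of 34 members lay above 0 (median 0.16, against 0.01 over all genes) and at 300 mg/kg 30 of 34 (median 0.22, against -0.00), while at 100 mg/kg 12 of 34 did (median -0.05). The 300 mg/kg group holds replicate 3, the kidney with the adipose mean of 10.07, and without it 28 of 34 lay above 0 with a median of 0.11 (-0.00 over all genes). Since members rise and fall together within kidneys, these counts do not weigh as 34 separate genes, and the share of all genes above 0 is not given beside them.

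Oasl, an oligoadenylate synthetase-like protein that aids RNA sensing, had the smallest kidney p. Oasl in kidney had log2 values of 5.33, 5.38, 5.37, 5.30 and 5.53 in control replicates 1 to 5 and, for replicates 1 to 4, 5.21, 5.73, 5.66 and 5.31 at 0.1 mg/kg, 5.80, 5.65, 5.84 and 5.45 at 1 mg/kg and 5.44, 5.68, 5.85 and 5.73 at 10 mg/kg. Kidney Oasl at the higher doses was 5.38, 5.70, 5.35 and 5.29 at 100 mg/kg, 5.64, 5.48, 5.76 and 5.55 at 300 mg/kg and 5.54, 5.38, 5.28 and 5.77 at 500 mg/kg. At 1 mg/kg 3 of 4 kidneys lay above every control and the fourth among them, and the mean was 5.68 ± 0.18 (SD, n = 4) against 5.38 ± 0.09 (SD, n = 5). The difference of 0.30 (SE 0.12) was not called (limma adjusted p = 0.433). Oasl in liver had log2 values of 5.89, 5.80, 5.96, 6.23 and 6.36 in control replicates 1 to 5 and, for replicates 1 to 4, 5.89, 6.52, 5.82 and 5.44 at 0.1 mg/kg, 5.76, 5.85, 6.45 and 5.70 at 1 mg/kg and 5.67, 6.12, 5.75 and 6.31 at 10 mg/kg. Liver Oasl at the higher doses was 5.95, 5.95, 5.71 and 5.78 at 100 mg/kg, 5.58, 5.82, 6.25 and 5.70 at 300 mg/kg and 5.79, 5.71, 5.42 and 6.40 at 500 mg/kg. Every dosed group of livers overlapped the controls for Oasl.

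Other kidney genes with the smallest p were Ifit3 (0.67, adjusted p = 0.511) and Eif2ak2 (0.24, adjusted p = 0.524) at 1 mg/kg, Ifi44 at 10 mg/kg (-0.38, adjusted p = 0.764) and Tap2 at 500 mg/kg (0.27, adjusted p = 0.45). At 300 mg/kg Ifi27 differed by 0.38, Cxcl10 by 0.44 and Parp9 by 0.25 (adjusted p = 0.841 each). Without replicate 3, the kidney rich in adipose transcripts, the differences were 0.155, 0.241 and 0.137. Over the ordered doses they were Trim25 (-0.03 per step, adjusted p = 0.572), Rsad2 (0.03) and Parp9 (0.02). Kidney Mx2 differed by 2.12 at 100 mg/kg (SE 1.21, adjusted p = 0.977) and 1.99 at 500 mg/kg (SE 1.21, adjusted p = 0.622), with 2 of the 5 control kidneys in its low cluster.

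The difference between the liver effect and the kidney effect was tested at each dose in 1 model over both organs. The model took the 58 arrays as independent, so its standard errors leave out the covariation of same-numbered livers and kidneys. No member was called at any of the 6 doses, where 0.122% of 10673 genes were called at 500 mg/kg and 0% at the others. At an unadjusted p under 0.05 there was 1 member at 1 mg/kg and 1 at 300 mg/kg, Irf1 both times, at -0.54 (SE 0.21, limma adjusted p = 0.562) and -0.46 (SE 0.21, adjusted p = 0.865). The share of all genes at that unadjusted p is not given here. For Oasl the difference was -0.41 at 1 mg/kg (adjusted p = 0.746) and -0.43 at 300 mg/kg (adjusted p = 0.918), and for Ifi44 0.46 at 300 mg/kg (adjusted p = 0.918).

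Untreated livers carried higher signals than untreated kidneys for most members. Of the 34 members whose probe set passed the filter in both organs 26 were higher in liver and 1 lower (limma, adjusted p under 0.05), where 34.8% of 10659 such genes were higher and 41.3% lower. The median difference was 1.00 over the members and -0.04 over all these genes. Without the control kidney high in hepatocyte transcripts 25 were higher and 1 lower, against 33.4% and 41.3% of genes. For 24 members all 5 control livers lay above all 5 control kidneys, a count that was not made over all genes and so cannot be weighed against them. The comparison rests on values whose scaling between organs is the authors' own, with medians of 5.26 to 5.31 on the liver arrays and 5.33 to 5.37 on the kidney arrays. Here too the fit took the arrays as independent. Its standard errors leave out the covariation of same-numbered livers and kidneys, which bears on members near the threshold.

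Rtp4 had the largest difference of the 34, 9.03 times higher in liver, at 8.98 ± 0.34 against 5.81 ± 0.22 (SD, n = 5 each), a difference of 3.17 (SE 0.28, adjusted p = 1.62e-14). Ifi27, a small membrane protein, was 5.08 times higher (2.34, SE 0.15, adjusted p = 3.8e-20), the immunoproteasome subunit Psmb8 4.49 times (2.17, SE 0.19, adjusted p = 6.57e-15) and Bst2 3.82 times (1.93, SE 0.14, adjusted p = 1.71e-17). In each of these 4 genes the lowest control liver exceeded the highest control kidney. Cxcl9 was at 7.38 ± 0.44 in liver and 4.11 ± 0.29 in kidney (SD, n = 5 each), but did not pass the filter in kidney, so no fold is given and it is in none of these counts. Rsad2 alone was lower in liver, at 7.37 ± 0.36 against 7.96 ± 0.25 (SD, n = 5 each), a difference of -0.59 (SE 0.18, adjusted p = 0.00297), and its ranges of 7.02 to 7.98 and 7.63 to 8.27 overlapped. Mx2 differed by -1.39 (SE 0.95, adjusted p = 0.18) and Cmpk2 by -0.22 (adjusted p = 0.29).

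The mean of 10 macrophage markers was also higher in control liver, 8.35 ± 0.10 against 5.77 ± 0.08 in kidney (SD, n = 5 each), and its part in the difference was not tested. Stat2, Psmb9, Parp9 and Usp18 lay between 1.44 and 1.49, each called. At the other end Cxcl10 (0.04), Mx1 (0.08), Herc6 (0.22) and Eif2ak2 (0.26) were not called, and neither was Isg15 (0.64, SE 0.32, adjusted p = 0.0656).

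**Figure D5:**
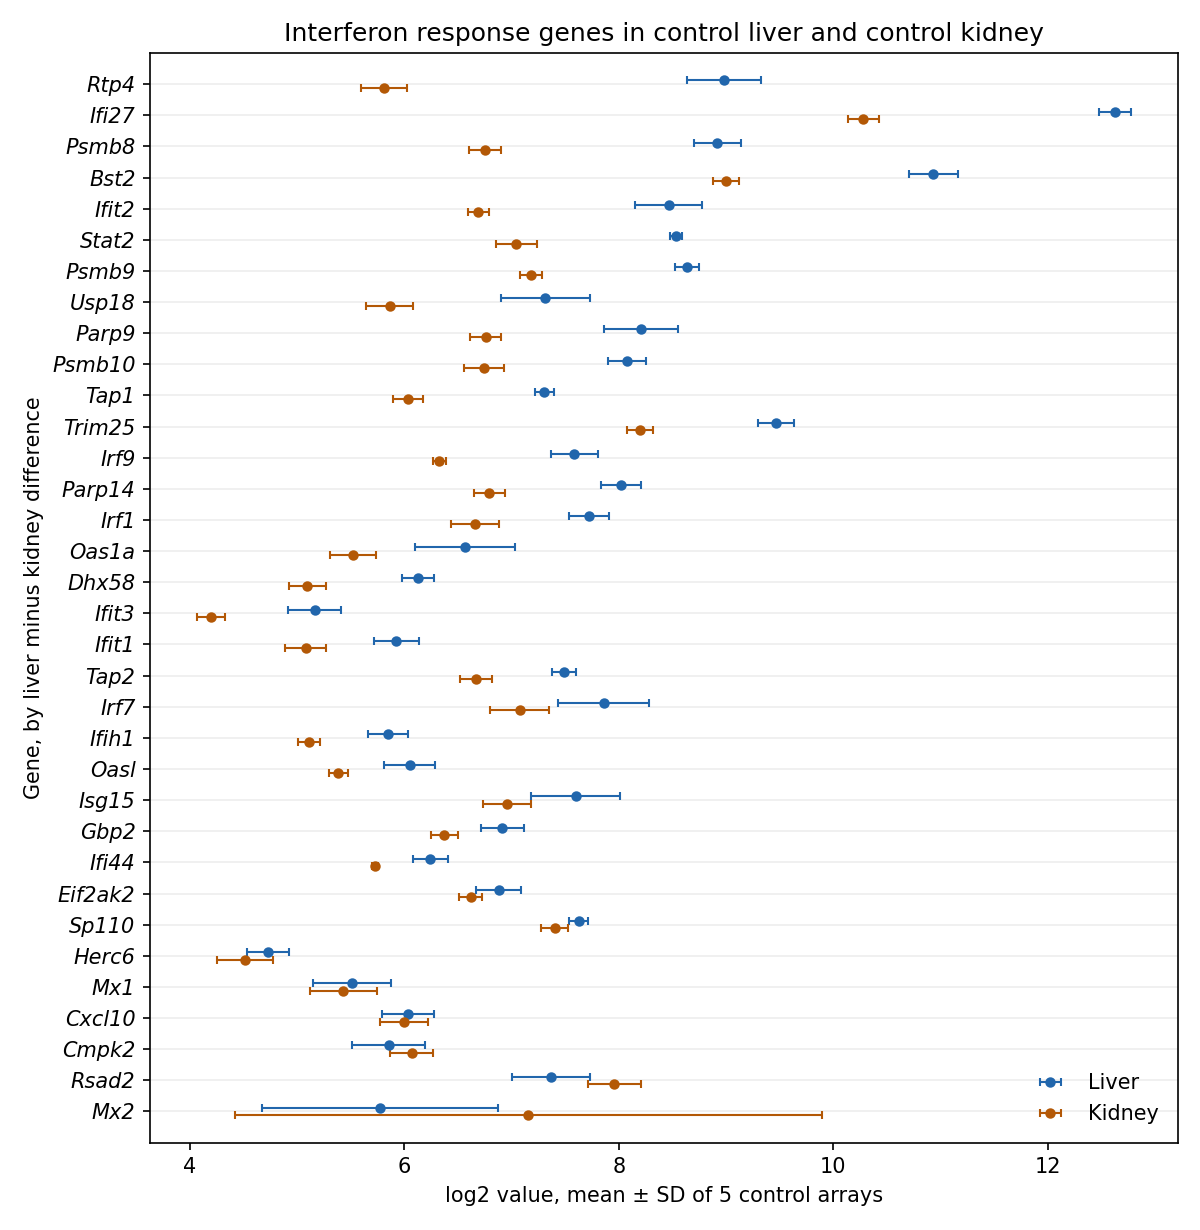
Log2 level (horizontal, mean ± SD of 5 control arrays) of the 34 genes that passed the filter in both organs, in control liver (blue) and control kidney (orange), ordered by the liver minus kidney difference. Rtp4 at the top differs by 3.17, and the wide kidney bar of Mx2 at the bottom spans its 2 clusters. Levels are set side by side within a gene on the authors' own scaling between organs, and are not comparable between genes.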

How the data were processed

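The deposited table holds log2 intensities, summarised by the authors with RMA (background correction, quantile normalization and median polish) per the submitters' processing notes, which name no version. Whether both organs went through RMA in 1 run is not stated in those notes. Of 31042 non-control probe sets 20826 carried 1 gene symbol in the platform annotation. Within an organ, probe sets stayed in where their value exceeded the 40th percentile of its array on at least 4 arrays (20028 kept in liver, 19675 in kidney), and the brightest kept probe set stood for a gene.

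Doses, ordered doses and organs were compared with limma 3.58.1 in R 4.3.3 (moderated variance with an intensity trend, all dose groups of an organ in 1 fit), with Benjamini-Hochberg adjustment over all genes and 0.05 as the threshold. Covariation used Pearson's r of deviations from dose-group means over 29 pairs (21 residual degrees of freedom), with 100000 two-sided permutations within dose for named members. P-values measure the spread between these samples. The members and all gene lists were chosen with earlier results of these data known.

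Named genes followed a rule: called members by smallest p, or the 3 smallest p where none was called; for covariation the 10 smallest and 3 largest p; for untreated organs the 5 largest differences each way. Other members are named by role. Checked on simulated data with 200 changed genes, the fit recovered 73% of differences of 0.5 in liver and 76.5% in kidney at 500 mg/kg, and the covariation step 26.5% at r = 0.6 and 91.5% at r = 0.8. The changed genes were drawn from all genes tested, with independent noise. Members vary more (median SD 0.32 in liver and 0.25 in kidney, against 0.15 and 0.13), so the shares for differences of 0.5 do not carry over to them. Alternatives covered normalization, filter, probe-set choice, variance model, replicate number, left-out arrays and pairs, and marker means.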

Additional observations from a re-analysis of the deposited data

Results flagged for a closer look

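Among 119 groups of 4 or 5 arrays tested for 1 array far from the others, 7 had such an array. Chance gives about 1 in 20 groups, so the number of flags is near what chance gives. Oas1a at 500 mg/kg was 7.8859 in liver replicate 4, with the nearest array at 6.0717, and 6.4658 in kidney replicate 4, with the nearest at 5.284. Usp18 in kidney replicate 4 at 500 mg/kg was 6.6258 against 5.4536 for the nearest array. These 3 values belong to the pair with the highest mean of the interferon response genes in both organs, a mean that Oas1a and Usp18 are part of. Mx2 in kidney was low in replicate 1 at 0.1 mg/kg (4.7451, nearest 9.2977), at 10 mg/kg (4.5615, nearest 9.0029) and at 300 mg/kg (4.2076, nearest 8.6902). Irf1 in liver replicate 2 at 500 mg/kg was 7.7852, with the nearest array at 7.3912. The causes were not tested.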

How the results depend on the processing

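The covariation count of 15 was 9 without the 1 mg/kg pairs (0.815% of all genes) and 8 without the 500 mg/kg pairs (0.721%). With 1 pair left out it was 9 to 16 (0.853% to 1.18% of all genes). The count was 2 with macrophage and lymphocyte means removed (0.656% of all genes). In alternatives added after seeing the data it was 3 with macrophage (0.862%) and 9 with lymphocyte means removed (0.768%). The other added alternatives gave 11 without the 2 adipose pairs (0.89%) and 3 without the 3 highest pairs (0.665%). The liver count at 500 mg/kg was 1 with probe sets averaged and 1 with every probe set tested. The liver trend count of 1 was 2 with every probe set, 0 with robust moderation, 0 with the macrophage covariate (added) and 0 to 1 with 1 liver left out. The r of Ifit1 turned to -0.0325 without the control pairs, -0.0945 with the replicate block and -0.0606 without control pair 5, within -0.0606 to 0.201 over left-out pairs. That of Psmb10, close to 0, turned to 0.0212 (Spearman), 0.0413 (quantile), 0.055 (cyclic loess) and 0.019 (lymphocyte mean removed), and without the 0, 0.1, 1, 100 and 500 mg/kg pairs to 0.0908, 0.0728, 0.0109, 0.0283 and 0.0433, with -0.145 to 0.0604 over left-out pairs. The cause was not tested. With the replicate number as a block, covariation gave 14 (0.899% of all genes), each dose 0, the liver trend 1 and untreated organs 31 against 28 (Cxcl9 included). With only genes above the filter in both organs (added) the untreated count was 27. For the dose, trend and untreated alternatives the share of all genes was not counted. The numbers are not stated to pair organs or doses. As a hint from the data, 27 of 29 livers correlated best with the kidney of their own number among the 4 or 5 kidneys of their dose. Those that did not were control pairs 2 and 3. The r passed 0.1 in 21 of 29 pairs, and in 1 of the 5 control pairs, where it ran from -0.03 to 0.13. Between doses and controls 7 of 48 same-numbered pairs passed 0.1. Of the remaining values of named genes 2315 kept direction and side of the threshold, 43 fell below it and 3 passed it. Many of the 2315 belong to results that were not called at the outset, so that count is no measure of how firm the calls are. Among the called covariation members Ifi27 stayed called in 36 of 48 alternatives, Mx1 in 33 of 47 and Herc6 in 31 of 47. Tap1 stayed called in 27 of 48 and Sp110 in 26 of 48, and each of the others in at least 41. Dim probe sets, such as Cxcl9 in kidney, limit what can be compared.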
